A study of Bos taurus with 106 samples.

Results

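Hepatic transcripts of feed-restricted Holstein cows were compared between day 1 after calving and day -14. The samples were chosen by their labels: 16 of the 106 arrays of the series, or 8 of its 53 cow-days, come from restricted cows on these days. The same 4 cows, numbered 6877, 6952, 7045 and 7105, were sampled on both days. Each cow-day is 1 liver RNA hybridised on 2 arrays with the dyes exchanged.

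The study set a restricted against a free intake during a dry period of 65 days. All cows received a diet of moderate energy density, 1.60 Mcal/kg. Restricted cows consumed about 80% of the NRC requirement and ad libitum cows about 120%. The 16 arrays of 4 ad libitum cows (6886, 7050, 7161 and 7187) on these same days enter the fit, give part of the spread and serve for the comparison of the diets. The labels describe no feeding after calving, so intake, calving and the start of lactation cannot be told apart in a difference between these days.

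Every value is a log2 ratio of liver over a common reference of other tissues, on a cDNA array with 2 spots per element. The base of the logarithm was inferred from the values. A cDNA element may also hybridise with related transcripts. Levels of different genes cannot be compared on this scale, because the reference holds each transcript at its own level. Values of the 4 restricted cows are listed in the order 6877, 6952, 7045 and 7105. A difference is day 1 minus day -14 and is given with its standard error (SE) from the fit.

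The liver of a dairy cow makes glucose for milk lactose, takes up fatty acids released from body fat, and secretes most plasma proteins. Proteins meant for secretion are brought to the endoplasmic reticulum (ER) by the signal recognition particle, threaded through the translocon, freed of their signal peptide by signal peptidase, glycosylated, and folded by lumenal chaperones. When folding lags, the unfolded protein response increases these chaperones. The liver also holds resident macrophages, the Kupffer cells, and lymphocytes, whose transcripts are part of any whole-liver sample.

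Some of these samples stood apart. The correlation across elements between both dye orientations of a cow-day was 0.502 to 0.687 in restricted cows on day -14 and 0.397 to 0.667 on day 1. In ad libitum cows it was 0.225 to 0.611 and 0.033 to 0.542, which overlaps the restricted range on each day. The spread of an array (SD across elements) had a median of 1.21 over the 8 restricted arrays of day -14 and 1.12 over those of day 1, with the highest value, 1.58, in cow 7105 on day -14. A cow's departure from its group was similar on both days in cows 6877 (r = 0.603 across elements) and 6952 (0.577), but not in cows 7045 (-0.344) and 7105 (-0.011). Cow 7105 on day -14 resembled cow 7045 on day 1 (0.599), while the reverse pair, cow 7045 on day -14 and cow 7105 on day 1, did not resemble each other (-0.009). The differences of cows 7045 and 7105 accordingly ran against each other across elements (r = -0.349), and those of cows 6952 and 7105 were the most alike (0.391). The labelled tissue was checked on the 4 measured hepatocyte markers (APOA1, RBP4, SLC10A1 and TF), whose mean log2 ratio lay between 3.54 and 4.02 in the restricted cows on day -14 and between 3.54 and 3.70 on day 1. APOA1 alone lay near the reference, between -0.30 and 1.94 on day -14.

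No element passed an adjusted p of 0.05 in restricted cows. The test was limma with cow as a random block over 8177 elements, and 0% were called. The smallest adjusted p was 0.276. Before adjustment, 895 elements had a p under 0.05. Of these, 497 were higher on day 1 (6.08% of all elements tested) and 398 were lower (4.87%). All 4 cows were higher on day 1 for 506 elements (6.19%) and lower for 664 (8.12%). The values of both days did not overlap for 147 elements that were higher (1.8%) and 105 that were lower (1.28%). Counts in gene lists are read against these percentages, and no gene named here passed the test.

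Other fits of the same values called more. With the spread taken from all 53 cow-days in 14 groups, limma called 9 elements: PDHA1, TSPAN13, MIX23, SSR3, ANP32E, MSX1 and 2 elements without a symbol were higher, and SAMM50 was lower. TSPAN13, MSX1 and SAMM50 are named only because that fit called them. Days differ in the agreement of the dye orientations, so a spread from all days is not that of the days compared. For this reason only the days compared entered the main fit, and adjusted p values from all 53 cow-days are given beside it as a description. With array weights, 164 elements were called, of which 68 were higher (0.832%) and 96 were lower (1.17%). That fit gave cow 7105 on day 1 a weight of 5.82, against 0.317 to 1.53 for the other 7 restricted cow-days. Without cow 6877 the count was 6, with 3 higher and 3 lower, and without each other restricted cow it was 0. The median difference over all elements was -0.04, and 90% of the differences lay between -0.52 and 0.59. Of the 8177 elements, 3674 had a difference above 0 and 4503 one below 0, the background for such counts in the lists.

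In the gene lists each gene counts by 1 element, the one with the most values. Genes of protein entry into the ER were higher on day 1, by a median of 0.52 on the log2 scale over 21 measured members, against -0.04 over all elements. Of the 21, 9 reached an unadjusted p under 0.05 as higher and 0 as lower, 6 were higher in all 4 cows, and 18 had a difference above 0. The cows were not alike: the median difference over members was -0.05 in cow 6877, 0.64 in cow 6952, 0.39 in cow 7045 and 0.64 in cow 7105. Without cow 6877 the count of 9 became 13, and without cow 6952 or cow 7105 it became 4. After scaling of each array it was 8, with a median of 0.45.

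SPCS2, a subunit of signal peptidase, was at 0.92, -0.35, -0.07 and -0.35 on day -14 and at 1.55, 0.46, 0.98 and 1.13 on day 1. All 4 cows were higher, though the days overlapped because cow 6877 already stood high before calving. The difference was 0.99 ± 0.27 (SE, n = 4 cows), a ratio of 1.99, with a limma adjusted p of 0.317. SRP14, which binds the Alu domain of the signal recognition particle RNA, was at -0.61, -1.08, -1.06 and -0.75 before calving and at -0.01, -0.44, -0.15 and -0.11 after. Here the days did not overlap, and the difference was 0.70 ± 0.18 (adjusted p = 0.291 by limma). SRP19, another protein of that particle, had a difference of 0.74 ± 0.24, and its days did not overlap either. SSR3, a subunit of the translocon-associated protein complex, was at 1.68, 0.37, 0.11 and 0.86 on day -14 and at 1.59, 1.96, 1.86 and 1.54 on day 1. The lower 3 cows reached the level at which cow 6877 already stood, and that cow was slightly lower on day 1. The difference of SSR3 was 0.98 ± 0.26 (adjusted p = 0.304 by limma, and 0.042 in the fit of all 53 cow-days).

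**Figure D1:**
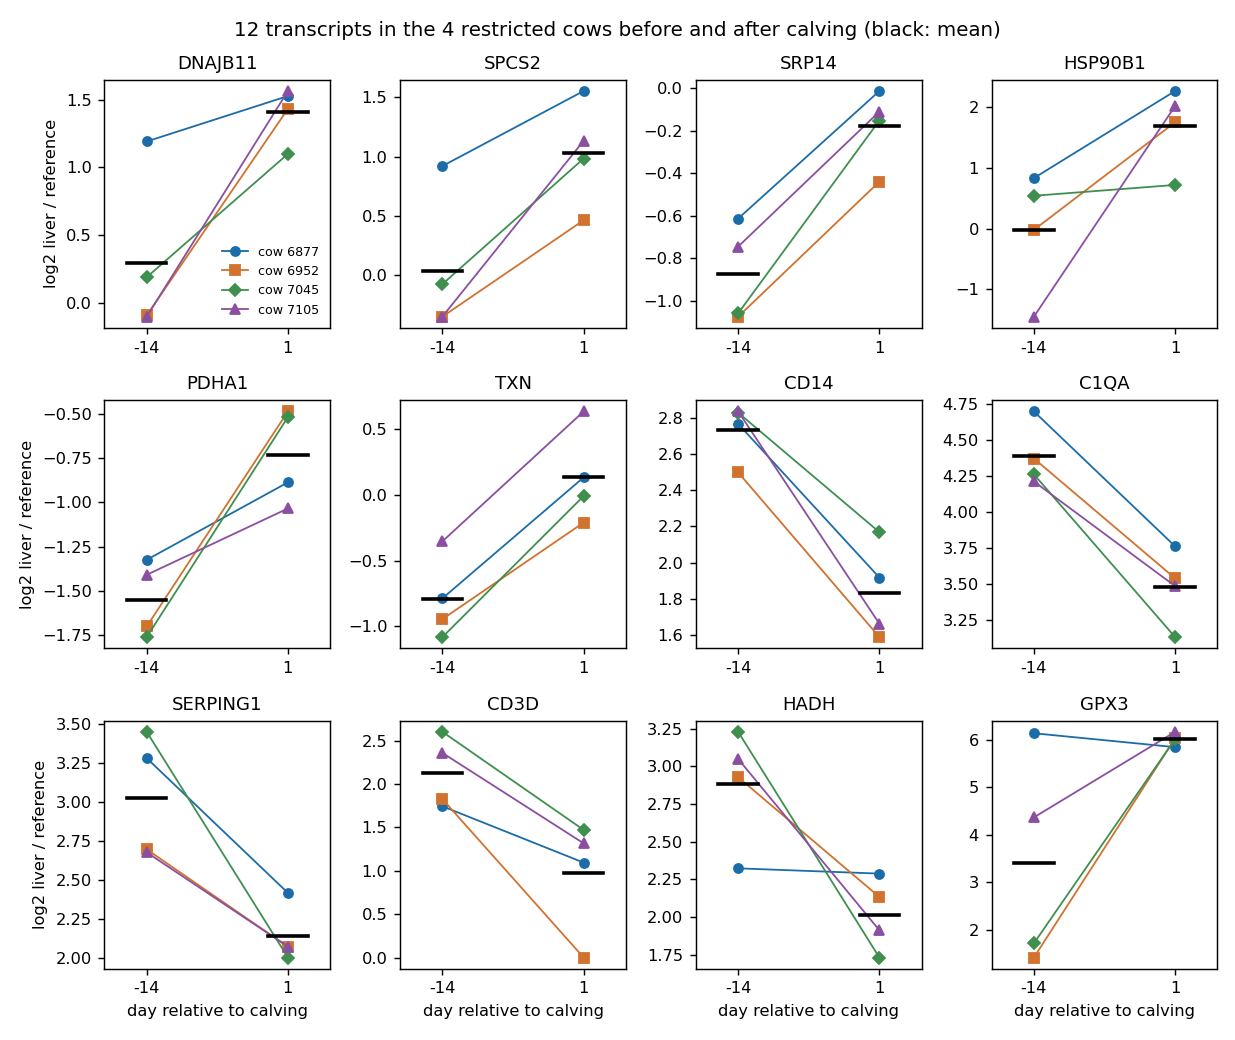
Log2 ratio of liver over reference (vertical axes) of 12 transcripts on days -14 and 1 relative to calving (horizontal axes) in the 4 restricted cows; each line is a cow and black bars are means. In cow 6877 DNAJB11, SPCS2 and GPX3 stood at 1.19, 0.92 and 6.13 before calving, above the other cows.

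Genes of ER folding and the unfolded protein response, called ER folding genes below, were also higher as a list. Over 29 measured members the median difference was 0.40, with 10 higher and 0 lower at an unadjusted p under 0.05, 6 higher in all 4 cows and 1 lower in all 4. The median was 0.03 in cow 6877, 0.88 in cow 6952, 0.18 in cow 7045 and 0.37 in cow 7105. The count of 10 became 15 without cow 6877, 3 without cow 6952 and 5 without cow 7105. It stayed at 10 after scaling of each array, with a median of 0.44. Liver in Cy3 alone gave 4 and liver in Cy5 alone 7. Regulators of the unfolded protein response did not share the increase. ATF4, DDIT3 and TRIB3 differed by 0.17 ± 0.26, 0.11 ± 0.17 and -0.21 ± 0.32, each within its error. The 1 member lower in all 4 cows was TXNDC5, at -0.345 ± 0.193.

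DNAJB11, a co-chaperone of the ER Hsp70 protein BiP, was at 1.19, -0.09, 0.19 and -0.10 on day -14 and at 1.53, 1.43, 1.10 and 1.56 on day 1. Every cow was higher, and the 4 cows lay closer together after calving. Its difference was 1.11 ± 0.24, a ratio of 2.15 (limma adjusted p = 0.276). HSP90B1 encodes the ER chaperone GRP94. Its values were 0.83, -0.02, 0.54 and -1.45 before calving and 2.26, 1.75, 0.72 and 2.01 after. The gap between the days was smallest in cow 7045 and largest in cow 7105, and the difference was 1.71 ± 0.47 (adjusted p = 0.333 by limma). Leaving out a cow moved it between 1.13 and 2.22. PDIA6, a protein disulfide isomerase, was at 1.33, -0.99, 0.03 and 0.51 on day -14 and at 1.65, -0.16, 1.84 and 1.66 on day 1. Cow 6952 was the lowest on both days, and the difference was 1.03 ± 0.37. SELENOS, an ER membrane selenoprotein of the degradation of misfolded proteins, had a difference of 0.75 ± 0.26 and was higher in 3 of 4 cows.

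Traffic from the ER to the Golgi was near the background. Of 27 members, 2 were higher and 0 lower at an unadjusted p under 0.05, with a median of 0.09. Among them BET1, a SNARE protein, had a difference of 0.61 ± 0.22, and the tether USO1 one of 0.88 ± 0.38, or 0.57 without cow 7105. Without cow 7045 the count was 8, and without cow 7105 it was 1.

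Chaperones of the cytosol and mitochondria held 8 higher and 0 lower at an unadjusted p under 0.05 among 30 members, with a median of 0.13. The count was 4 without cow 6877, 5 without cow 6952 and 1 without cow 7105. HSPE1, the mitochondrial chaperonin Hsp10, was represented by 2 elements. The first was at 0.64, 0.25, 0.34 and 0.17 on day -14 and at 1.03, 0.81, 0.86 and 1.37 on day 1, so the days did not overlap. Its difference was 0.67 ± 0.17 (adjusted p = 0.291 by limma), and the second element gave 0.69 ± 0.18. HSPA9, the mitochondrial Hsp70, differed by 0.99 ± 0.38 and was higher in all 4 cows. HSPA8, the constitutive cytosolic Hsp70, differed by 0.88 ± 0.33 on 1 element and 0.72 ± 0.28 on the other, with cow 7045 lower on day 1 on both. CCT2, a subunit of the cytosolic chaperonin, differed by 0.75 ± 0.29, also with 1 cow lower. Without cow 7105 the first HSPA8 element stood at 0.35 and CCT2 at 0.39.

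Proteasome subunits gave 5 higher and 1 lower among 24, with a median of 0.10. The count of higher members was 1 without cow 6877, 3 without cow 6952 and 2 without cow 7105. PSMA1, PSMA6 and the ATPase subunit PSMC2 were higher in all 4 cows with no overlap of the days, by 0.71 ± 0.24, 0.64 ± 0.21 and 0.72 ± 0.24. The second PSMC2 element gave 0.60 ± 0.26.

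Subunits of oxidative phosphorylation were 8 higher and 1 lower among 45, with a median of 0.16. All 4 cows were higher for 10 members, and the days did not overlap for 7 that were higher, against 1.8% of all elements. COX7A2, a subunit of cytochrome c oxidase, was at -0.66, -0.73, -1.02 and -0.36 on day -14 and at 0.04, 0.08, -0.04 and 0.02 on day 1. The cows lay at nearly equal values after calving, with a difference of 0.72 ± 0.18 (adjusted p = 0.291 by limma). ATP5PF of the ATP synthase differed by 0.61 ± 0.17 and NDUFA12 of complex I by 0.57 ± 0.16. UQCRC1, a core protein of complex III, went the other way on 1 element, by -0.54 ± 0.16 with all 4 cows lower, and by -0.19 ± 0.17 on the other. Lower in all 4 cows were also ATP5F1D, NDUFS8 and NDUFV1, at -0.17 ± 0.19, -0.40 ± 0.21 and -0.35 ± 0.26. Without cow 6952 the count of higher members was 5, liver in Cy3 alone gave 4, and without cow 7105 the count of lower members was 3.

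**Figure D2:**
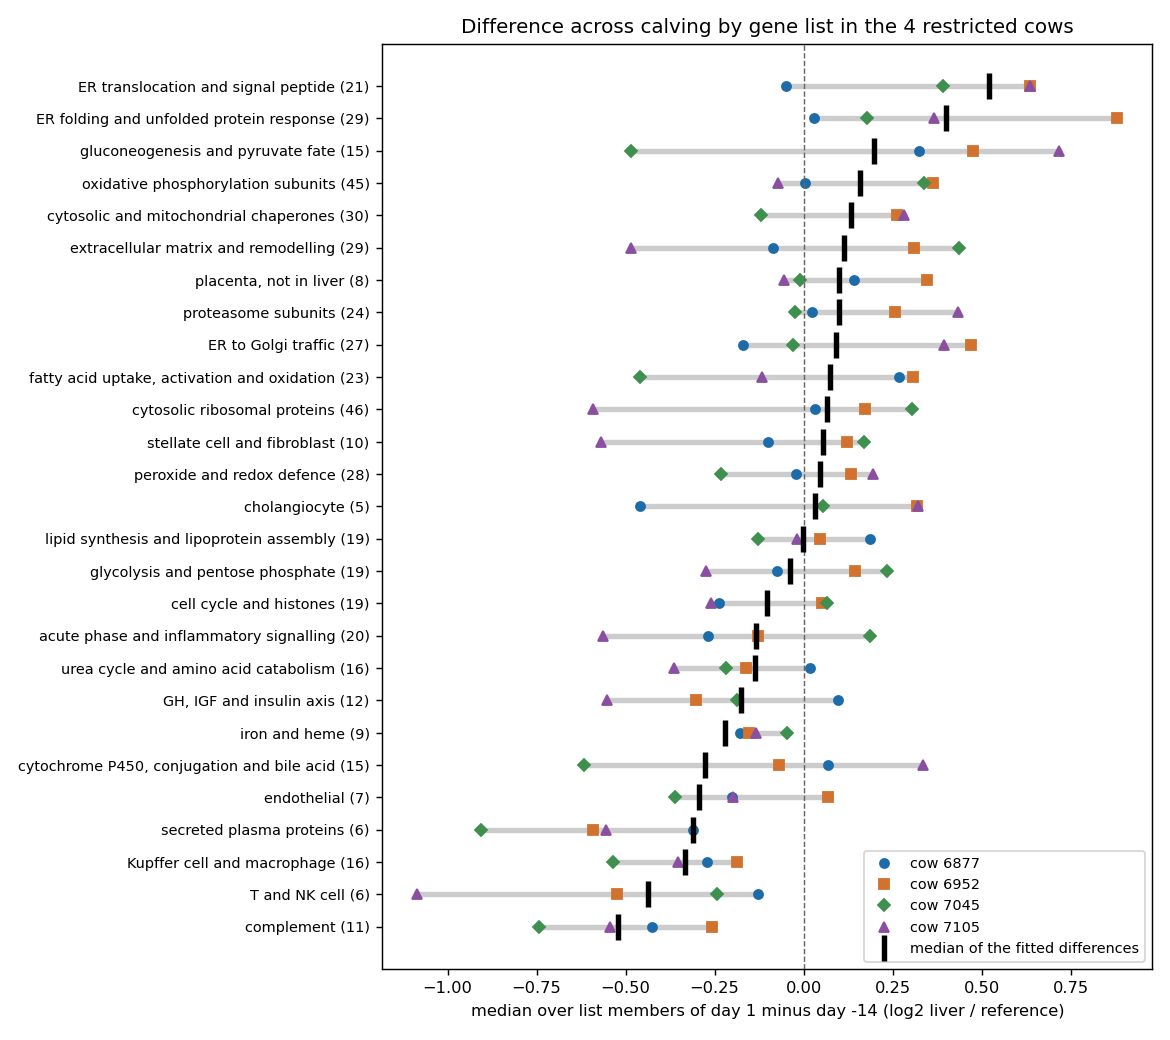
Median over the members of each gene list of day 1 minus day -14 (horizontal axis, log2) in each of the 4 restricted cows (coloured points, with a grey bar from the lowest to the highest cow) and over the fitted differences (black tick); the number of measured members follows each name. ER translocation lies at 0.52 with cow 6877 at -0.05, and complement lies at -0.52 with all 4 cows below 0.

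Pyruvate and glucose metabolism is described first by single genes and then by list. PDHA1 encodes the E1 alpha subunit of pyruvate dehydrogenase, which turns pyruvate into acetyl-CoA. Its element with the smallest p of all named genes was at -1.32, -1.70, -1.76 and -1.41 on day -14 and at -0.89, -0.48, -0.52 and -1.03 on day 1. All 4 cows were higher without overlap, by 0.82 ± 0.17, a ratio of 1.77 (limma adjusted p = 0.276, and 0.042 in the fit of all 53 cow-days). The other PDHA1 element, which stands for the gene in the list, differed by 0.25 ± 0.27, with 2 cows higher and 2 lower, so the elements of this gene did not give the same picture. MDH1, the cytosolic malate dehydrogenase, was at -0.41, -1.53, -1.09 and -1.08 before calving and at 0.06, -0.69, -0.18 and -0.22 after, 0.77 ± 0.19 higher. LDHA, the muscle-type lactate dehydrogenase subunit, differed by 1.00 ± 0.34 and was higher in all 4 cows. PC, the pyruvate carboxylase that feeds gluconeogenesis, was at 0.74, 0.99, 0.34 and 0.43 before and at 0.82, 1.58, 0.31 and 0.58 after. Its difference of 0.19 ± 0.21 was within its error. The list of gluconeogenesis and pyruvate fate held 3 higher and 0 lower among 15, with a median of 0.20. A difference above 0 was found for 12 of the 15, but the median over members was -0.485 in cow 7045. The 3 higher members were MDH1, LDHA and DLD, a shared subunit of 2-oxoacid dehydrogenases, at 0.89 ± 0.40. Without cow 7045 there were 6 higher, and without cow 6952 there was 1. Among 19 glycolytic and pentose phosphate genes 3 were higher and 1 was lower, with PGK1 at 0.46 ± 0.16 and PFKP at -0.41 ± 0.14. These counts were 1 and 3 without cow 7045, 1 and 1 without cow 6952 and 1 and 1 after scaling, so the balance of the list rested on single cows and on the scaling. Without cow 6877 they were 2 and 0.

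Fatty acid genes were divided. Of 23 members of uptake, activation and oxidation, 4 were higher and 5 lower, with a median of 0.07. HADHA, among the 5 lower, stood at -2.04 ± 0.92, with 1 cow higher and 1 lower of those with values on both days. HADH, the mitochondrial 3-hydroxyacyl-CoA dehydrogenase, was at 2.32, 2.93, 3.23 and 3.05 on day -14 and at 2.29, 2.13, 1.73 and 1.91 on day 1. The days did not overlap, though cow 6877 hardly moved, and the difference was -0.87 ± 0.25. ECI1, an enoyl-CoA isomerase of the oxidation of unsaturated fatty acids, was lower in all 4 cows without overlap, by -0.81 ± 0.26. After scaling of each array these values were -0.42 and -0.46, and the list had 3 higher and 0 lower members with a median of 0.25. Leaving out a cow moved the higher members between 0 (without cow 6952) and 5 (without cow 7045) and the lower between 6 (without cow 6877) and 1 (without cow 7045). PLIN2, which coats lipid droplets, was higher in all 4 cows, by 0.55 ± 0.20. CPT1A, which lets long-chain fatty acids into mitochondria, differed by 0.23 ± 0.19 on 1 element and -0.10 ± 0.17 on the other, and ACSL1, which activates fatty acids, by 0.23 ± 0.34. The value of ACSL1 turned to -0.21 with array weights. Lipid synthesis and lipoprotein assembly had 0 higher and 0 lower among 19 members and a median of -0.003. Leaving out a cow gave 0 higher and 2 lower (cow 6877), 2 and 0 (cow 7045) or 2 and 2 (cow 7105), with medians from -0.13 to 0.15. SREBF1, the regulator of lipogenic genes, lacked a value in cow 6952 on day -14 and differed by 0.15 ± 0.45.

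Redox genes included the largest difference of any named gene. GPX3, the secreted glutathione peroxidase, was at 6.13, 1.41, 1.71 and 4.36 on day -14 and at 5.84, 6.03, 6.01 and 6.16 on day 1. Before calving the cows were spread over a wide range, and after calving all 4 lay close to the level at which cow 6877 already stood. The difference was 2.61 ± 0.84, a ratio of 6.08, with 3 of 4 cows higher (limma adjusted p = 0.363). It was 3.57 without cow 6877 and 1.94 at the lowest without another cow. TXN, the thioredoxin that reduces protein disulfides, was at -0.79, -0.94, -1.08 and -0.35 before calving and at 0.13, -0.21, -0.01 and 0.64 after, 0.93 ± 0.23 higher and without overlap. GPX4, which reduces lipid hydroperoxides, differed by 0.59 ± 0.21. CAT, the peroxisomal catalase, was at 5.16, 5.39, 6.20 and 4.69 before and at 5.33, 4.59, 4.74 and 4.91 after. It was higher in 2 cows and lower in 2, and its difference of -0.47 ± 0.27 became 0.14 after scaling of each array and -0.14 without cow 7045. Over the 28 members of the list 3 were higher and 0 lower, with a median of 0.05.

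Complement genes were lower on day 1, by a median of -0.52 over 11 members. At an unadjusted p under 0.05, 5 were lower and 0 higher, 8 were lower in all 4 cows, and the days did not overlap for 3. The median was below 0 in each cow, at -0.43, -0.26, -0.74 and -0.54. After scaling of each array the median was -0.01 and the count 0, so most of the size of the difference was lost. The mean log2 ratio of the complement genes was 3.69 to 3.96 over the cows on day -14. Among all 93 elements with a mean log2 ratio above 3 the median difference was -0.28, so transcripts at that level were lower as a set too. After scaling it was 0.17. That set includes C1QA, C1QB and other complement genes, so it is not independent of this list. SERPING1, the C1 inhibitor that restrains the classical pathway, was at 3.28, 2.70, 3.45 and 2.68 on day -14 and at 2.42, 2.08, 2.01 and 2.08 on day 1. All 4 cows were lower without overlap, by -0.88 ± 0.19 (limma adjusted p = 0.276), and by -0.47 after scaling. C1QA, a chain of the recognition protein C1q, was at 4.70, 4.37, 4.26 and 4.21 before calving and at 3.76, 3.54, 3.13 and 3.49 after, -0.90 ± 0.21 lower. Scaling left -0.33. C1QB differed by -0.58 ± 0.22 on 1 element and -0.31 ± 0.21 on the other, and by -0.01 on the first after scaling. C4A, the fourth component, differed by -0.68 ± 0.30, or -0.41 without cow 7045. The count of lower members was 3 without cow 7045.

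The lower complement members came with lower macrophage markers, and 3 of the 11 complement genes (C1QA, C1QB and C1QC) are among the 16 measured macrophage markers. Of those 16, 7 were lower and 0 higher, 5 without overlap of the days, with a median of -0.33 and per-cow medians from -0.54 to -0.19. Their mean log2 ratio ran from 2.39 to 2.78 over the cows on day -14 and from 2.07 to 2.54 on day 1. After scaling of each array the median was 0.001, with 1 lower and 0 higher. Of the 16, 4 had a difference above 0, among them the protease CTSS at 0.75 ± 0.39 and the scavenger receptor MSR1 at 0.65 ± 0.37, each higher in 3 of 4 cows. Without cow 7045 the counts were 6 lower and 3 higher. CD14, the endotoxin co-receptor of monocytes and macrophages, was measured by 2 elements. The first was at 2.77, 2.50, 2.83 and 2.83 on day -14 and at 1.92, 1.59, 2.17 and 1.66 on day 1. Both elements separated the days, with differences of -0.90 ± 0.20 (limma adjusted p = 0.276) and -0.99 ± 0.22, and of -0.54 and -0.60 after scaling. Other markers of this list were not alike. CD163 and VSIG4 differed by -0.02 ± 0.38 and -0.13 ± 0.20, and a second VSIG4 element by -0.12 ± 0.22. LGMN and CD74 were lower in all 4 cows without overlap of the days, by -0.91 ± 0.27 and -0.59 ± 0.21. In whole liver, fewer cells of a type and less RNA per cell cannot be told apart, and the part of macrophages in the complement values was not tested.

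CD3D, a chain of the T cell receptor complex, was at 1.74, 1.83, 2.60 and 2.36 before calving and at 1.09, 0.0, 1.47 and 1.32 after. All 4 cows were lower without overlap, and the difference was -1.16 ± 0.25 (limma adjusted p = 0.276), or -0.85 after scaling. It was -1.71 with liver in Cy5 alone and -0.62 with liver in Cy3 alone. Of the 6 measured T and NK cell markers 2 were lower and 0 higher, and all 6 had a difference below 0, with a median of -0.44. Leaving out cow 6877 gave 4, and leaving out cow 6952 or cow 7105 gave 1. Scaling left a median of -0.31 for this list. Only S100A12 was measured of the neutrophil markers. This calcium-binding alarmin of granulocytes was at 3.17, 1.82, 1.53 and 2.43 before and at 2.63, 2.62, 3.33 and 3.43 after, and its difference was 0.77 ± 0.29 with 3 of 4 cows higher. It was 0.42 without cow 7045 and 1.20 without cow 6877. Endothelial markers were 1 lower and 0 higher among 7, with 3 lower without cow 7045, 2 without cow 6952 and 0 without cow 7105. Stellate cell and fibroblast markers were 1 lower and 0 higher among 10, with FBLN2, a matrix protein, at -0.93 ± 0.28, or -0.59 without cow 7045, where the count was 0. Cholangiocyte markers were 0 in both directions among 5.

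**Figure D3:**
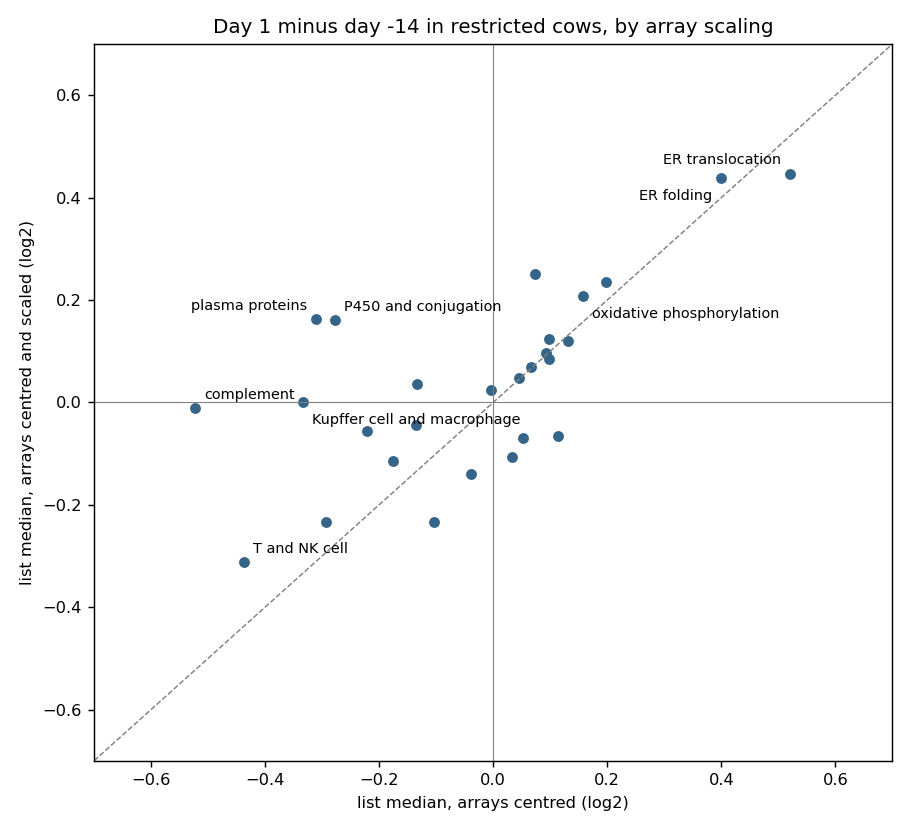
Median of day 1 minus day -14 over the members of each list in restricted cows (log2), with arrays centred (horizontal axis) and with arrays centred and scaled to equal spread (vertical axis); each point is a list and the dashed line marks equal values. The ER lists kept medians of 0.45 and 0.44, while complement moved from -0.52 to -0.01 and the macrophage markers from -0.33 to 0.001.

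The scaling touched strongly liver-enriched transcripts most. Among 93 elements with a mean log2 ratio above 3 in the restricted cows, the median difference was -0.28 as centred and 0.17 after scaling. Among the 6765 elements between -1 and 1 it was -0.04 and -0.03. Secreted plasma proteins, which on average lie in the high range as complement genes do, moved from a median of -0.31 to 0.16 over 6 members. RBP4, the retinol carrier, was lower in all 4 cows by -0.58 ± 0.21 but stood at 0.15 after scaling, and RARRES2, the adipokine chemerin, moved from -0.70 ± 0.24 to -0.03.

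In the acute phase and inflammation list, 1 of 20 was higher and 4 were lower, with a median of -0.13. The count of lower members was 7 without cow 7045 and 1 without cow 7105, and 3 were higher without cow 6877. CP, the copper carrier ceruloplasmin, was at 7.0, 6.39, 6.76 and 5.92 before calving and at 7.37, 7.16, 7.10 and 7.29 after. The days did not overlap, and the difference was 0.71 ± 0.27, or 1.35 after scaling. It was 1.09 with liver in Cy5 alone and 0.34 with liver in Cy3 alone. SOCS1, an inhibitor of cytokine signalling, was lower in all 4 cows by -0.49 ± 0.19, by -0.75 in Cy5 alone and by -0.22 in Cy3 alone. JUN differed by -0.88 ± 0.37 on 1 element with 2 cows in each direction (-0.44 without cow 7105, -0.57 without cow 6952), and by 0.24 ± 0.21 on the other. Of the 15 genes of cytochrome P450, conjugation and bile acid transport, 1 was higher and 3 lower, or 0 and 1 without cow 7105. SULT1A1, a phenol sulfotransferase, and SLCO2B1, an organic anion transporter, were lower in all 4 cows, by -0.93 ± 0.30 and -0.78 ± 0.27. After scaling they stood at -0.47 and -0.39, and the list median turned from -0.28 to 0.16. Only 2 restricted cows on each day had a value for CYB5R3, the 1 higher member.

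Heme and amino acid enzymes held further single genes. ALAD, which makes porphobilinogen for heme, was at 2.83, 2.87, 3.40 and 3.23 before calving and at 2.56, 2.59, 2.19 and 2.03 after, lower in all 4 cows without overlap by -0.74 ± 0.18. ALAS1, the first enzyme of that pathway in liver, was lower in all 4 cows by -0.46 ± 0.19. AHCY, which breaks down S-adenosylhomocysteine, was lower without overlap by -0.85 ± 0.27, and GSTZ1 of tyrosine breakdown by -0.78 ± 0.26 in all 4 cows. After scaling, ALAD stood at -0.33, ALAS1 at -0.18, AHCY at -0.29 and GSTZ1 at -0.54. Counts were 2 higher and 2 lower of 9 for iron and heme and 0 higher and 2 lower of 16 for the urea cycle and amino acid catabolism. The iron and heme counts were 1 and 2 without cow 6877, 0 and 1 without cow 6952 or cow 7105, and 1 and 0 after scaling. In the GH, IGF and insulin list 0 were higher and 2 lower of 12. These were the kinases AKT1 and AKT2, at -0.40 ± 0.16 and -0.82 ± 0.27. AKT2 was at 2.26 in cow 7105 on day -14, against 0.33 to 1.06 in the other cows. Its difference was -0.39 without that cow, and the list counts were then 1 and 1.

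Lists of growth and structure had few members past an unadjusted p of 0.05. Ribosomal proteins were 4 higher and 0 lower of 46, with a median of 0.07. The median was -0.10 without cow 7045, -0.004 without cow 6877 and 0.29 without cow 7105, and the count of higher members ranged from 1 to 8 over the cows left out. Among them RPL7L1, a ribosomal protein L7-like protein, was higher in all 4 cows without overlap, by 0.77 ± 0.18. Cell cycle and histone genes were 1 higher and 0 lower of 19, and extracellular matrix genes 1 and 1 of 29. Without cow 7045 the cell cycle list had 1 higher and 3 lower. The matrix list had 3 and 2 without cow 6877, 0 and 1 without cow 6952, 3 and 0 without cow 7045 and 4 and 1 without cow 7105. A control list of placental transcripts was 0 in both directions among 8. The 1 higher cell cycle member was ANP32E, a chaperone of a histone variant. It was at -0.97, -1.04, -1.62 and -1.81 on day -14 and at -0.53, 0.21, -0.92 and 0.21 on day 1. Its difference was 1.10 ± 0.25, a ratio of 2.15, without overlap of the days (adjusted p = 0.291 by limma, and 0.042 in the fit of all 53 cow-days).

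Genes of no list were also among those with the smallest p. MIX23, a mitochondrial intermembrane space protein, was at -0.57, -0.92, -0.40 and -0.69 before calving and at 0.16, -0.06, -0.11 and 0.25 after. The difference was 0.70 ± 0.17. MRPL42, a mitochondrial ribosomal protein, UBE2V2, a ubiquitin-conjugating enzyme variant, and REXO2, a mitochondrial oligoribonuclease, differed by 0.61 ± 0.15, 0.75 ± 0.19 and 0.76 ± 0.19. A second REXO2 element gave 0.72 ± 0.19. All of these separated the days. Among lower genes, OAF was at 2.29, 1.86, 1.91 and 1.69 before and at 1.20, 1.44, 1.20 and 1.00 after, by -0.73 ± 0.16. TTLL12 and DHRS9, a retinol dehydrogenase, were lower without overlap by -0.81 ± 0.19 and -0.77 ± 0.20 (DHRS9 by -0.51 without cow 7105), and CCDC42 was lower in all 4 cows by -0.97 ± 0.24. LASP1, an actin-binding protein, was lower by -1.06 ± 0.26 on 1 element but by only -0.02 ± 0.16 on the other. Across the 787 genes measured by exactly 2 elements, the correlation between their differences was 0.343, and 487 pairs had the same sign.

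No element passed a test of the difference between the diets. The smallest limma adjusted p of the interaction was 0.819, and 408 elements had an unadjusted p under 0.05, or 4.99%. In ad libitum cows alone 0 elements passed, 237 had an unadjusted p under 0.05, and the smallest adjusted p was 0.269. With array weights limma called 4 elements in ad libitum cows and 1 in the fit of all 53 cow-days. The differences of both diets were uncorrelated across all elements (r = -0.008), and the diets share no cows. Of the 895 elements with an unadjusted p under 0.05 in restricted cows (limma), 519 had the same sign in ad libitum cows. The same-sign count over all elements is not given here, so 519 has no background to be read against. For ER translocation the median was 0.52 in restricted and 0.23 in ad libitum cows, for ER folding 0.40 and 0.24, for complement -0.52 and -0.20, and for macrophage markers -0.33 and -0.37.

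GPX3 differed by 2.61 ± 0.84 in restricted and 3.35 ± 0.84 in ad libitum cows, S100A12 by 0.77 ± 0.29 and 0.97 ± 0.29, and SSR3 by 0.98 ± 0.26 and 0.95 ± 0.26. For the folding genes DNAJB11, HSP90B1, PDIA6 and SELENOS the ad libitum differences were 0.60, 0.14, 0.38 and 0.18, each below the restricted one. For SPCS2, SRP14 and SRP19 they were -0.05, -0.05 and 0.04. These folding and translocation genes were named for the smallest p in restricted cows within their lists. That choice alone favours a larger difference in restricted than in ad libitum cows. An unadjusted interaction p under 0.05 (limma) was reached by 1 of 29 ER folding and 2 of 21 ER translocation members, against 4.99% of all elements. CAT differed by -0.47 in restricted and -1.20 in ad libitum cows. Among the elements with the smallest unadjusted p of the interaction was FGL2, a fibrinogen-like protein of immune cells, with 0.60 ± 0.23 in restricted and -0.74 ± 0.23 in ad libitum cows. YIPF4, a Golgi membrane protein, gave 0.86 ± 0.36 and -1.20 ± 0.36, and HSPBAP1 gave 0.87 ± 0.31 and -0.83 ± 0.31. With liver in Cy3 alone the restricted values of YIPF4 and HSPBAP1 were 0.23 and -0.05, and with liver in Cy5 alone 1.5 and 1.79. HSPBAP1 stood at 0.56 without cow 6952. On the other side DHRS9, PFKP, LASP1, PIP4K2C and CD3D were lower in restricted cows and at 0.17 ± 0.20, 0.29 ± 0.14, 0.17 ± 0.26, 0.30 ± 0.12 and 0.01 ± 0.25 in ad libitum cows. PTPN21 had values from 2 restricted cows on day -14. IFT43 differed by -0.01 ± 0.14 in restricted and -0.81 ± 0.14 in ad libitum cows, so its place in this group came from the ad libitum side.

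**Figure D4:**
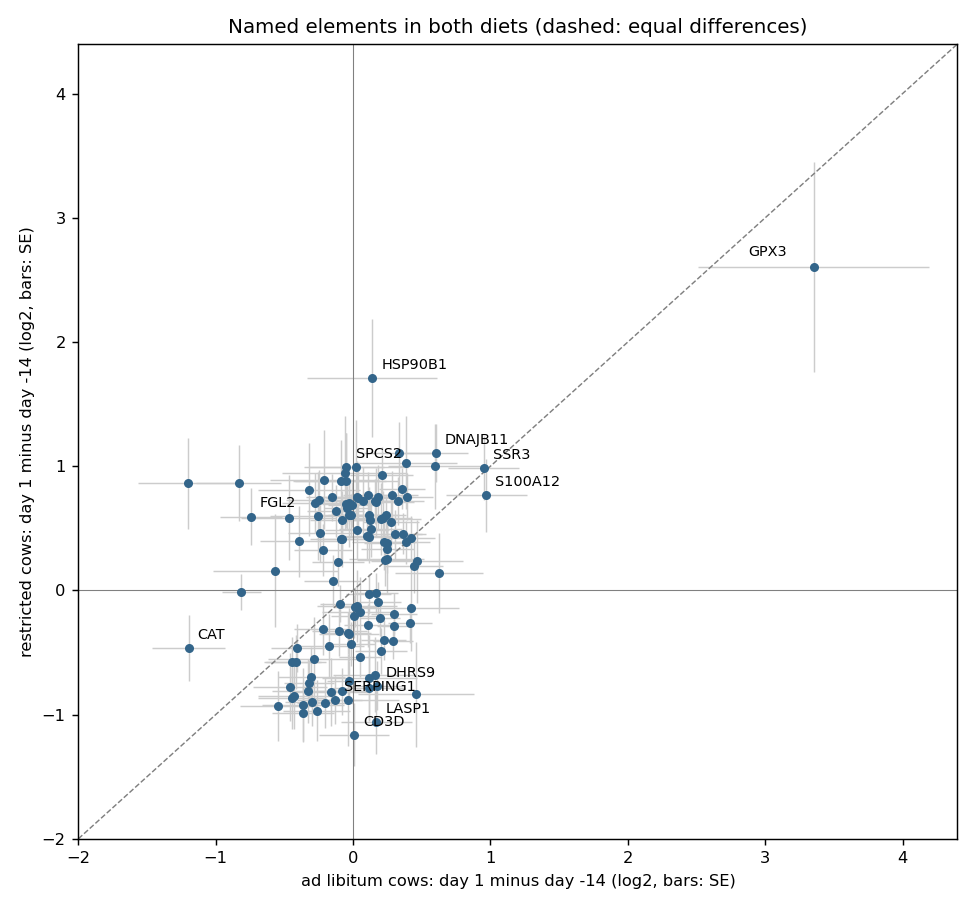
Day 1 minus day -14 (log2) in ad libitum cows (horizontal axis) and restricted cows (vertical axis) for the named elements measured in all 4 restricted cows on both days; points are fitted differences, bars are SE, and the dashed line marks equal differences. GPX3 lies at 3.35 and 2.61, while CD3D lies at 0.01 and -1.16.

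Means on the 5 sampling days outside this comparison are given as a description, without a test or scaling of each array. In restricted cows both dye orientations correlated at 0.665 to 0.794 on day -30 and at 0.676 to 0.745 on day 28. The range was 0.544 to 0.816 on day -65, 0.343 to 0.796 on day 14 and 0.555 to 0.750 on day 49. On day 1 they correlated at 0.397 to 0.667, so the days differed in array agreement as well as in time. Day 14 reached lower than day 1, which limits its means too. Over the 7 days, the mean of the restricted cows was highest on day 1 for 23.4% of all elements and lowest on day 1 for 21.4%. Among ER folding genes day 1 was the highest for 24 of 29 and the lowest for 0, and among ER translocation genes for 15 of 21 and 0. For oxidative phosphorylation the count of highest was 22 of 45, for ribosomal proteins 22 of 46, for extracellular matrix 17 of 29 and for gluconeogenesis and pyruvate fate 9 of 15. Complement genes had 0 of 11 highest and 4 lowest on day 1.

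DNAJB11 averaged -0.24 ± 0.29 (SD, n = 4) on day -65, -0.27 ± 0.28 on day -30, 0.30 ± 0.61 on day -14, 1.41 ± 0.21 on day 1, 0.06 ± 0.29 on day 14, -0.34 ± 0.19 on day 28 and -0.13 ± 0.29 on day 49. It was thus back near its dry-period level by the next sampling. PDHA1 stood between -1.82 ± 0.15 and -1.24 ± 0.37 on the other 6 days, against -0.73 ± 0.27 on day 1. GPX3 averaged 0.38 ± 0.53 on day -65, 1.98 ± 1.82 on day -30, 3.41 ± 2.25 on day -14, 6.01 ± 0.13 on day 1 and 2.99 ± 0.59 on day 14. The first CD14 element had its lowest mean, 1.83 ± 0.26, on day 1, after 3.54 ± 0.49 on day -30, and reached 3.42 ± 0.31 on day 28. SERPING1 followed the same order, with 4.02 ± 0.21 on day -30, 2.14 ± 0.19 on day 1 and 4.03 ± 0.39 on day 28. HADH was at 2.02 ± 0.25 on day 1 and between 2.60 ± 0.37 and 3.08 ± 0.10 on the other days.

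**Figure D5:**
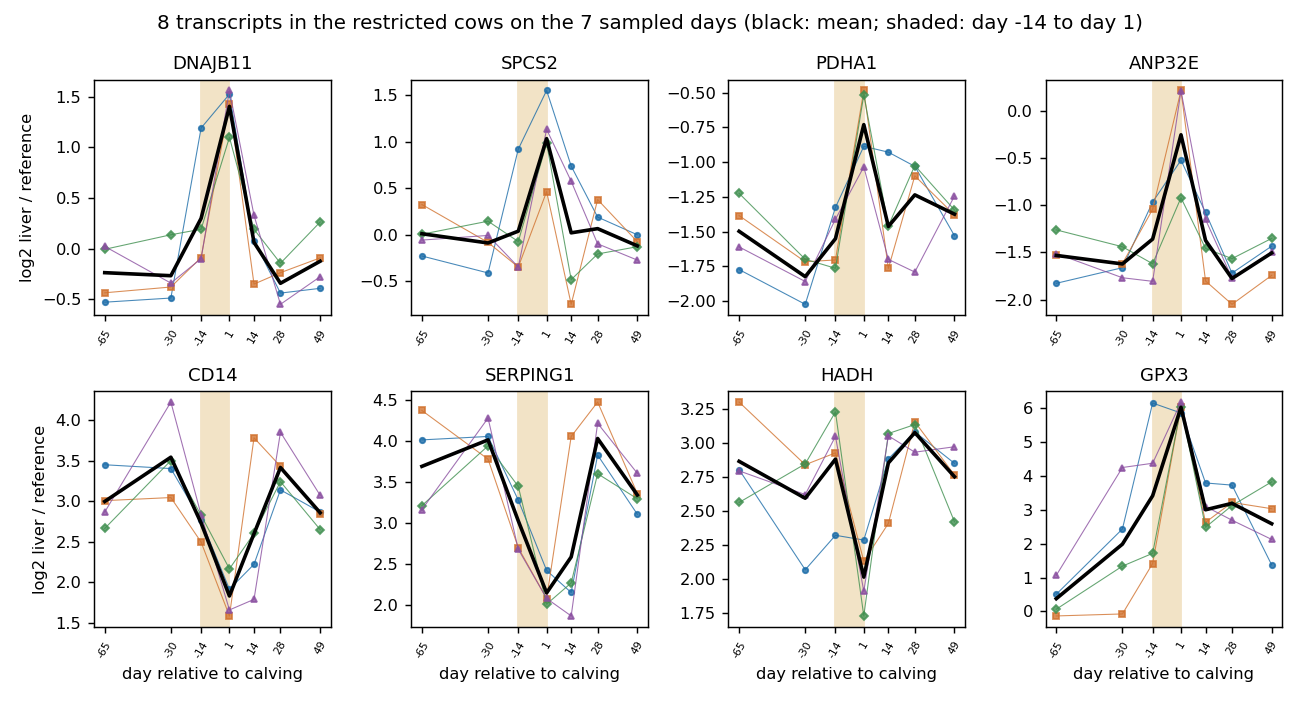
Log2 ratio of liver over reference (vertical axes) of 8 transcripts in the restricted cows on the 7 sampling days relative to calving (horizontal axes); thin lines are cows, the black line is their mean, and shading spans days -14 to 1. DNAJB11 peaks at 1.41 on day 1, and the first CD14 element has its lowest mean, 1.83, on that day.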

How the data were processed

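Liver RNA of each cow-day was hybridised against the reference in both dye orientations. The authors deposited 1 value per spot, taken here as log2 of Cy5 over Cy3, since exact values of 1 and -1 were 3.7 and 10.48 times as frequent as their neighbours. Per the labels, slides were read with GenePix. How background, spot flags and scaling were handled is not given in the sources used here. Ratios were turned to liver over reference, centred on each array's median, and averaged over 2 spots and both orientations (8208 elements). Testing required values from 2 or more cows in every one of 4 diet-by-day groups (8177 elements) and used limma 3.58.1 under R 4.3.3, with 4 group means, cow as a random block (within-cow correlation 0.2246), two-sided tests and Benjamini-Hochberg adjustment. The number of cows, 4 per diet, limits the precision. The fit was tested on simulated data.

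The pairing comes from the cow numbers in the labels; same-cow deviations correlated at 0.603, 0.577, -0.344 and -0.011. Symbols came from the platform annotation (5598 elements with 1 symbol, 95 with several, 2515 with none listed; 5591 gene identifiers found in RefSeq of ARS-UCD2.0). The comparison, the lists and the genes were chosen with earlier results of these data known. Named genes were the 10 with the smallest p in each direction, since none passed, up to 4 members per list and 5 per direction of the interaction by smallest p, and GPX3, CAT, SSR3, DNAJB11, S100A12, PC, PDHA1, CPT1A, ACSL1 and SREBF1 from earlier results. CD163, VSIG4, CTSS, MSR1, LGMN, CD74, ATP5F1D, NDUFS8, NDUFV1, HADHA, TSPAN13, MSX1, SAMM50, ATF4, DDIT3, TRIB3 and TXNDC5 were added after their values were seen.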

Additional observations from a re-analysis of the deposited data

Results flagged for a closer look

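Of the 108 elements named by the stated rules, 4 had all restricted cows on one side and all ad libitum cows on the other. The share over all elements is not given here, so the count has no background to be read against. DHRS9, HSPBAP1 and PIP4K2C were named for a small p of the interaction, which by itself favours such a separation. The restricted minus ad libitum difference of day 1 minus day -14 was -0.62 for AKT1, -0.94 for DHRS9, 1.70 for HSPBAP1 and -0.58 for PIP4K2C. No element passed the limma test of this difference, where the smallest adjusted p was 0.819.

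Of 212 groups of 4 restricted cows examined, 6 (2.83%) had 1 cow apart by Dixon's criterion. Chance alone meets it in about 1 in 20 groups, so the number is no more than chance gives. On day 1, CHKA was at -0.07 in cow 7105, with the nearest other cow at 0.31. GRB10 was at 1.65 in cow 6952, with the nearest at 0.65. HSPA9 was at 1.03 in cow 6877, with the nearest at 0.25, and SERPING1 at 2.42 in that cow, with the nearest at 2.08. PDIA6 was at -0.16 in cow 6952, with the nearest at 1.65. On day -14, the first HSPA8 element was at -2.8 in cow 7105, with the nearest at -1.49.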

How the results depend on the processing

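The count of 0 elements past the adjusted p in restricted cows became 9 with the spread of all 53 cow-days and 164 with array weights, and ranged from 0 to 6 over the cows left out. In ad libitum cows those fits called 1 and 4. The cause was not tested. The other fits called 0 in restricted cows. With cow as a fixed replicate block, the fully paired fit, 0 elements passed and the smallest adjusted p was 0.506. Some named values changed sign. With liver in Cy3 alone, APOA1 was -0.50, CPT1A 0.061, HSPBAP1 -0.052, MCM4 0.038, MLXIPL 0.14 and SREBF1 -0.56. After scaling, CAT was 0.14, CPT1A 0.15, IFT43 0.006 and RBP4 0.15. With array weights, ACSL1 was -0.21 and CPT1A 0.029. IFT43 was 0.079 without centring, 0.13 with liver in Cy5 alone and 0.066 without cow-days of dye agreement under 0.6. Over the restricted cows left out, ACSL1 ranged from -0.017 to 0.678, APOA1 from -0.219 to 0.531, IFT43 from -0.055 to 0.076 and SREBF1 from -0.357 to 0.804. CPT1A was 0.004 without cow 7105 on day -14 and cow 7045 on day 1, a setting chosen after seeing the data, as were the removal of cow-days by dye agreement after each element's dye difference was taken out, which keeps more cow-days, and the list medians under each setting. With 4 cows, precision is set by their number.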
